A study of Mus musculus with 16 samples.

Results

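Interferon-induced antiviral effector genes are the genes that a cell switches on after it senses an interferon, and whose products act on viral RNA, viral proteins or the host machinery that viruses need. The list taken here held 45 mouse genes known as such effectors, taken by name. Of the 45, 41 were measured by a probe set that names 1 gene, among 18820 genes in all. Oas1g, Parp9, Dtx3l and Ifi44 had no such probe set. The RNA came from RAW264.7, an established line of mouse macrophage-like cells that grew from a tumour induced by Abelson leukaemia virus, and each group has 4 arrays. LPS+DHA5HT cells received lipopolysaccharide (LPS, a component of the outer wall of Gram-negative bacteria) at 1 µg/ml together with docosahexaenoyl serotonin (DHA5HT, a conjugate of the n-3 fatty acid DHA with serotonin) at 1 µM. LPS cells received 1 µg/ml LPS with vehicle, DHA5HT cells received 1 µM DHA5HT, and control cells received the vehicle, ethanol at 0.1%. All exposures lasted 24 h. The labels do not say in which solvent DHA5HT was added. All groups share 1 cell line. Whether arrays of the same group come from separate cultures is not stated, so a p-value here reflects spread among arrays that may be technical.

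In macrophages, LPS is sensed by TLR4, and the branch of its signalling that runs through TRIF, TBK1 and IRF3 switches on interferon beta. Secreted interferon then binds its receptor on the same and neighbouring cells, JAK kinases activate the transcription factor complex ISGF3, which holds STAT2 and IRF9 and binds the interferon-stimulated response element (ISRE) in the promoters of the effector genes. IRF7, itself an effector of this loop, widens it to further interferon genes. Many cells also keep a low, tonic expression of these genes without infection, through interferon made in trace amounts.

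All values below are log2 intensities, so a difference of 1 is a doubling, and errors are SD over 4 arrays unless an SE is named. Levels of different genes are not compared, since probe sets differ in brightness. The 1 exception is the level of genes that macrophages should lack, given below, which is a rough guide for the same reason. Array medians lay between 4.58 and 4.67. The 10 macrophage markers averaged 11.13 to 11.67 per array, and 17 markers of T cells, B cells and epithelial cells had a median of 3.60, taken as the level of genes that macrophages should lack. Cd28, a T cell co-receptor, was the exception among them, with group means of 6.97 to 9.19. Because 3.60 is a median, other markers lay above it too, with group means up to 4.20 (B cell) and 4.67 (epithelial). Array 1 of LPS+DHA5HT has a title that names both agents and a treatment label that names DHA5HT alone. It was placed by its title. Its mean over the 41 genes, 8.77, lay just below the other LPS+DHA5HT arrays (8.85 to 9.24) and well above the DHA5HT arrays (7.21 to 7.43). Adgre1, a macrophage marker outside the list, read 10.75 in it. The other LPS+DHA5HT arrays read 10.39 to 10.99 for Adgre1, and the DHA5HT arrays read 6.95 to 7.49. Array 4 of LPS+DHA5HT stood apart from all others on the second principal component of all genes, at -22.42 against -9.36 to 10.02. Results that use LPS+DHA5HT are therefore also given without these 2 arrays where that changes them.

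Promoter sequence was looked up for the measured genes, because the effector genes share a known binding element. RefSeq windows on GRCm38.p6 were found for 33 of the 41 genes, and the 250 bases before each transcription start were searched on both strands. The core of the ISRE, written GAAA, then 2 bases of any kind, then GAAA again, occurred in 10 of the 33 (30.3%), against 494 of 14716 measured genes that are not on the list (3.36%). The gamma-activated site TTCNNNGAA occurred in 6 of the 33 (18.2%), against 1143 of those 14716 (7.77%). A match is a run of letters and not a shown binding site. The 10 genes with the ISRE core were Ifit1, Ifit3, Ifit3b, Oas1a, Oas3, Isg15, Rsad2, Bst2, Trim30a and Ddx60. Isg15 (chr4:156200819-156201068, minus strand), Ifit1 (chr19:34640639-34640888, plus strand), Rsad2 (chr12:26456453-26456702, minus strand) and Bst2 (chr8:71537473-71537722, minus strand) are shown because they carry the core and rank among the effectors described most closely below. Cmpk2 (chr12:26468965-26469214, plus strand), the neighbour of Rsad2, is shown as a gene without a match. Each is written from its upstream end to the base before the start, with the letters of the ISRE core in capitals on whichever strand they lie.
Isg15: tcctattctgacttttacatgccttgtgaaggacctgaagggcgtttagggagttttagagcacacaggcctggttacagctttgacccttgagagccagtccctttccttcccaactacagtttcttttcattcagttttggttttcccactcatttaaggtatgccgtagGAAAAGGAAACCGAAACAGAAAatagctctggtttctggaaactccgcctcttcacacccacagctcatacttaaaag
Ifit1: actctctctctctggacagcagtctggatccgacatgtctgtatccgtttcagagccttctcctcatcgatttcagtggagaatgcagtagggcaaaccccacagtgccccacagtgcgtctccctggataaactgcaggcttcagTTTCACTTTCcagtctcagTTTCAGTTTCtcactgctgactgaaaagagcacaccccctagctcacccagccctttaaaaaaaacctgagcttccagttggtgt
Rsad2: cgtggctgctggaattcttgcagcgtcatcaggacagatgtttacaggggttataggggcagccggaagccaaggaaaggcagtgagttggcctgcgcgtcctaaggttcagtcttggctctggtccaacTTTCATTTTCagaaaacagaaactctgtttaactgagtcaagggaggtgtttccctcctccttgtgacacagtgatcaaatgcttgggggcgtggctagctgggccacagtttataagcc
Bst2: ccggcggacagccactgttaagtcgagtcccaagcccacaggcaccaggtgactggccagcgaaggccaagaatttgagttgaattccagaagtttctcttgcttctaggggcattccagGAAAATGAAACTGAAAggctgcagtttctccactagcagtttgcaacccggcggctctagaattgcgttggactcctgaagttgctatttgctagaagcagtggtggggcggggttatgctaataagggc
Cmpk2: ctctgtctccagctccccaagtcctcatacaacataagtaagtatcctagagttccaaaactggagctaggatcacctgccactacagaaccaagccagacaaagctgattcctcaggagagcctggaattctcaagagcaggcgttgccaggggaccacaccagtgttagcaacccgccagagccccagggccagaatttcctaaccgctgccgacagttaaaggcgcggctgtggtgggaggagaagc
Isg15 held 3 overlapping matches in 1 stretch, Ifit1 held 2 separate ones, Rsad2 held 1 and Bst2 held 2 that overlap. Overlapping matches arise because the end of one core is the start of the next.

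DHA5HT alone lowered most of the effector genes. Against control, 29 of the 41 genes fell (70.7%) and 1 rose, at an adjusted p under 0.05 from limma with Benjamini-Hochberg adjustment over all 18820 genes. This fit did not pair arrays by their replicate number, nor did those below unless a block is named. Over all genes, 0.478% fell and 0.122% rose by the same test. The median change of the 41 genes was -0.89, and that of all genes was 0.01. The 29 genes made up 32.2% of the 90 genes that fell. They also took 6 of the 10 largest decreases and 12 of the 20 largest. Earlier results of these data were known when the list was chosen, so these shares describe the list and do not test it. Rtp4, a chaperone of receptors that also restrains flaviviruses, had the largest decrease of any gene, at -2.53 ± 0.22 (SE), a 5.78-fold lower intensity. In 35 of the 41 genes all DHA5HT arrays lay below all control arrays, which held for 2.85% of all genes. In bulk RNA, fewer cells that express a gene and less of its RNA per cell cannot be told apart.

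**Figure D1:**
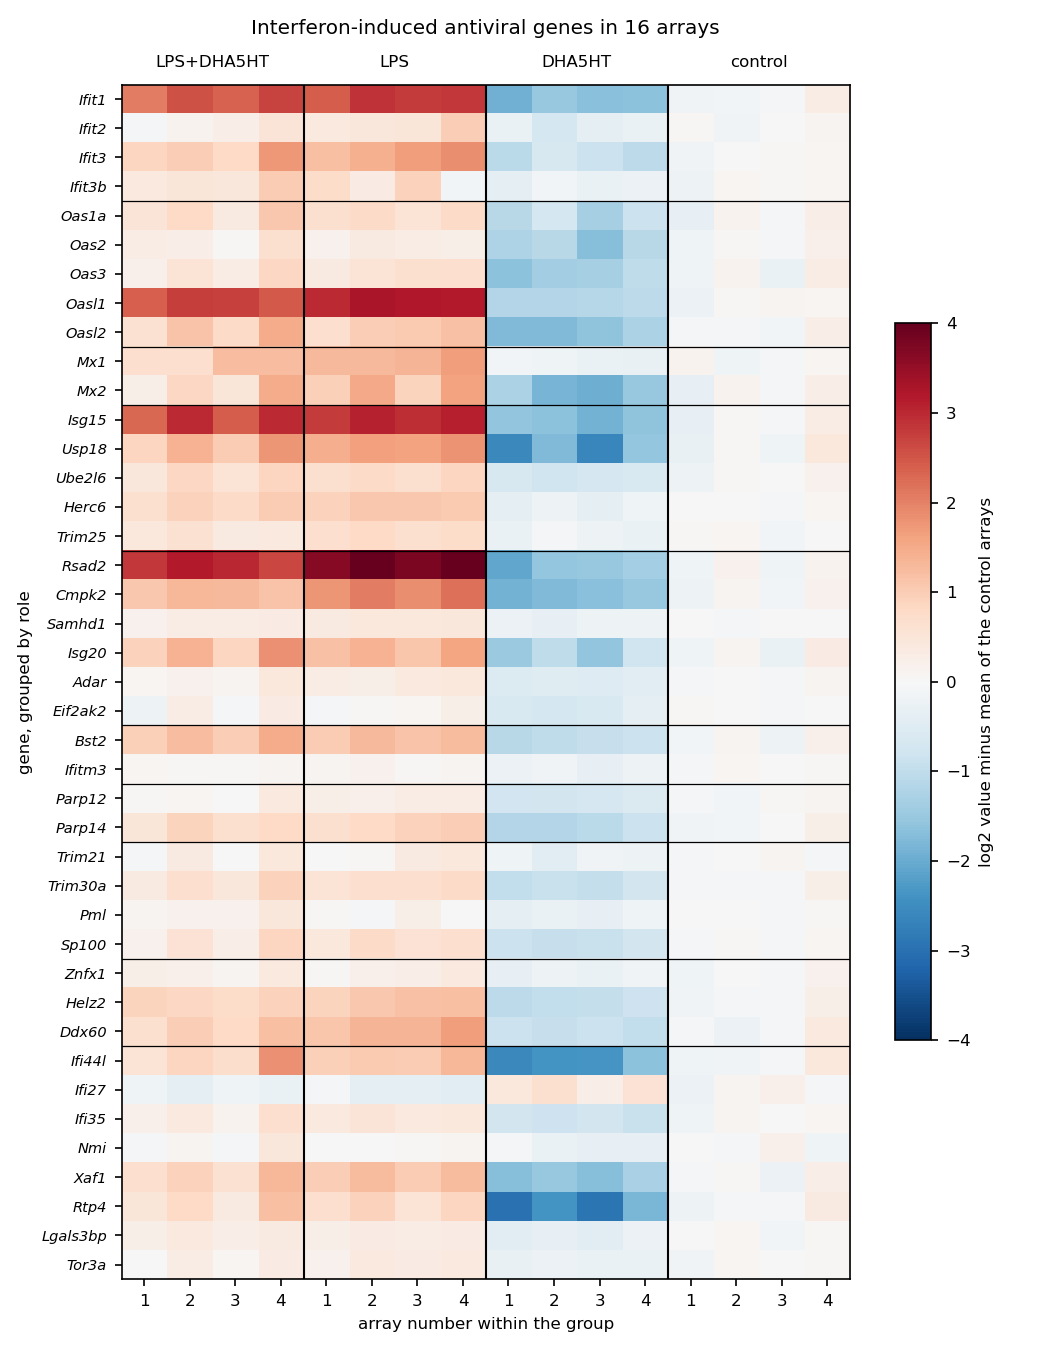
Heat map of the 41 measured genes (rows, grouped by role) in the 16 arrays (columns, 4 per group), with colour giving the log2 value minus the mean of the control arrays (red higher, blue lower). Most rows are blue in the 4 DHA5HT arrays and red in the LPS+DHA5HT and LPS arrays, while Ifi27 runs the other way.

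LPS raised 32 of the 41 genes against control and lowered 1, Ifi27, where 12.6% of all genes rose and 15.8% fell. The median change of the 41 genes was 0.71. DHA5HT against control and LPS against control use the same control arrays, so their values stand side by side without a test of their likeness. In the presence of LPS, DHA5HT lowered 3 of the 41 genes, Rsad2, Cmpk2 and Oasl1, and raised none (limma). Over all genes 0.972% fell and 0.818% rose in that comparison, where 7.32% of the 41 fell. An unadjusted p under 0.05 was found for 13 of the 41, a larger share than the 13.7% of all genes. The change was negative in 32 of the 41 and positive in 9, where 50.9% of all genes had a positive change. The median change of the 41 was -0.12. For 6 of the 41 the highest array with both agents was lower than the lowest array with LPS alone (Rsad2, Cmpk2, Oasl1, Mx1, Trim25 and Samhd1), which held for 3.91% of all genes, and the arrays overlapped for the other 35. The difference between the DHA5HT effects with and without LPS was tested itself. This interaction passed in 16 of the 41 genes, positive in each, where 0.165% of all genes passed in each direction. With the replicate number as a block it passed in 22, the others being Oas1a, Oasl1, Isg20, Ube2l6, Sp100 and Lgals3bp. A positive interaction means that the DHA5HT change was less negative with LPS than without it. The 16 genes were 51.6% of the 31 genes with a positive interaction and held 8 of its 10 largest values.

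**Figure D2:**
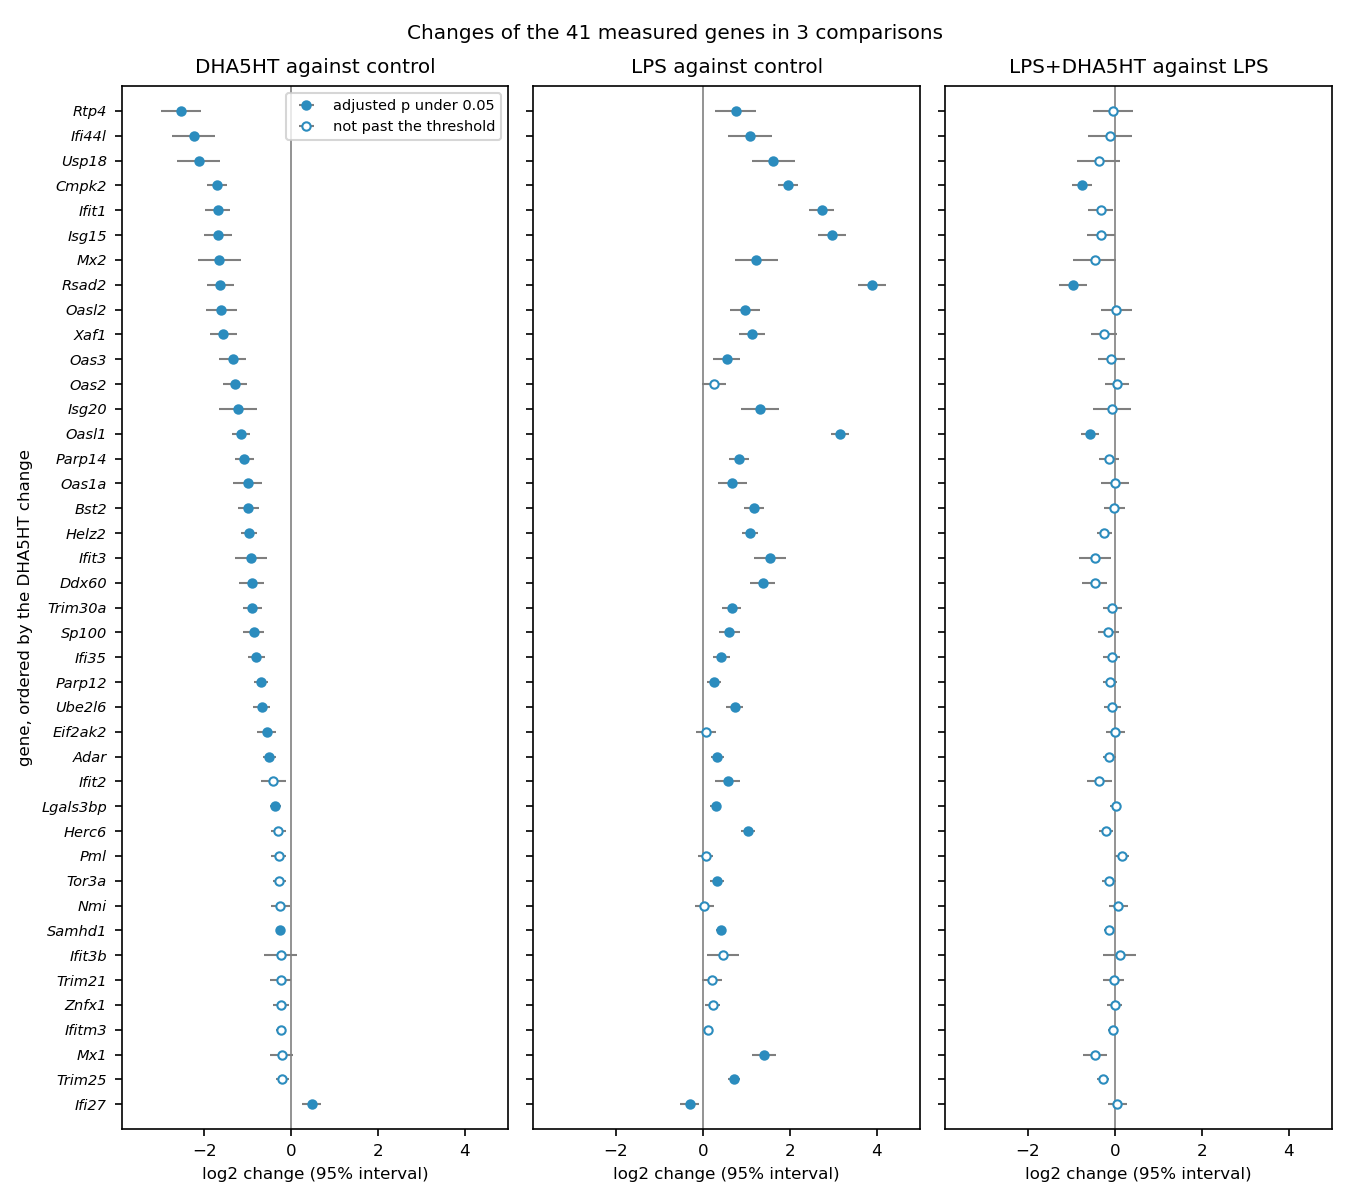
Log2 change of each of the 41 genes (points, with 95% intervals) for DHA5HT against control, LPS against control and LPS+DHA5HT against LPS, ordered by the first. Filled points passed an adjusted p of 0.05. The changes reach down to -2.53 for DHA5HT alone and down to -0.96 for DHA5HT added to LPS.

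The ISG15 system attaches a small ubiquitin-like protein to other proteins. Isg15, the modifier itself, stood at 4.78, 4.72, 4.45 and 4.75 in the DHA5HT arrays, against 6.03, 6.40, 6.32 and 6.65 in the control arrays. It stood at 8.65, 9.32, 8.76 and 9.34 in the LPS+DHA5HT arrays, against 9.14, 9.42, 9.31 and 9.44 in the LPS arrays. The DHA5HT arrays lay below every control array, and the LPS+DHA5HT and LPS arrays overlapped far above both. Isg15 fell by DHA5HT alone (-1.67 ± 0.15 SE, adjusted p = 8.83e-06, limma), and its change in LPS-treated cells was -0.31 with a 95% interval of -0.63 to 0.01. The interaction was 1.37 ± 0.22 (SE, adjusted p = 0.00649).
Usp18 removes ISG15 from its targets and also dampens signalling at the type I interferon receptor. Its values were 6.45, 7.26, 6.43 and 7.49 in the DHA5HT arrays, against 8.73, 9.08, 8.86 and 9.46 in the control arrays. They were 9.88, 10.43, 10.04 and 10.80 in the LPS+DHA5HT arrays, against 10.49, 10.68, 10.65 and 10.81 in the LPS arrays. Every DHA5HT array lay below every control array, and 3 of the 4 arrays that had both agents were lower than any array with LPS alone. Usp18 changed by -2.13 ± 0.23 (SE) with DHA5HT alone, a 4.36-fold decrease, and by -0.37 in LPS-treated cells (95% interval -0.86 to 0.12). Its interaction of 1.76 (adjusted p = 0.0271) lost its call when any 1 of 9 arrays was left out (LPS 1, 2 or 3, DHA5HT 1 or 3, control 2 or 4, LPS+DHA5HT 2 or 4). Over the 16 leave-outs it ranged from 1.58 to 1.95 with adjusted p of 0.00741 to 0.0684.
Ube2l6, the enzyme that hands ISG15 to its ligase, read 7.16, 7.02, 7.13 and 7.20 in the DHA5HT arrays, against 7.59, 7.84, 7.80 and 7.96 in the control arrays. Its readings with LPS were 8.27, 8.63, 8.35 and 8.64 in the LPS+DHA5HT arrays, against 8.45, 8.56, 8.44 and 8.67 in the LPS arrays. DHA5HT arrays lay below all control arrays (-0.67, adjusted p = 0.000783), and the LPS-treated groups overlapped. The interaction of 0.62 did not pass (adjusted p = 0.0643), and it passed with the replicate number as a block (adjusted p = 0.0134). Herc6, the ISG15 ligase of the mouse, averaged 8.07 ± 0.10 in DHA5HT cells and 8.35 ± 0.06 in control cells. Its change of -0.29 did not pass (adjusted p = 0.156), and it passed with the block (adjusted p = 0.0336). Trim25, a ubiquitin ligase that activates the RNA sensor RIG-I, averaged 10.47 ± 0.10 in LPS+DHA5HT cells and 10.73 ± 0.06 in LPS cells, with no overlap of arrays. That change of -0.26 did not pass (adjusted p = 0.0561), and it passed with the block (adjusted p = 0.012). LPS raised all 5 genes of this system, by 0.71 for Trim25 up to 2.98 for Isg15.

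**Figure D3:**
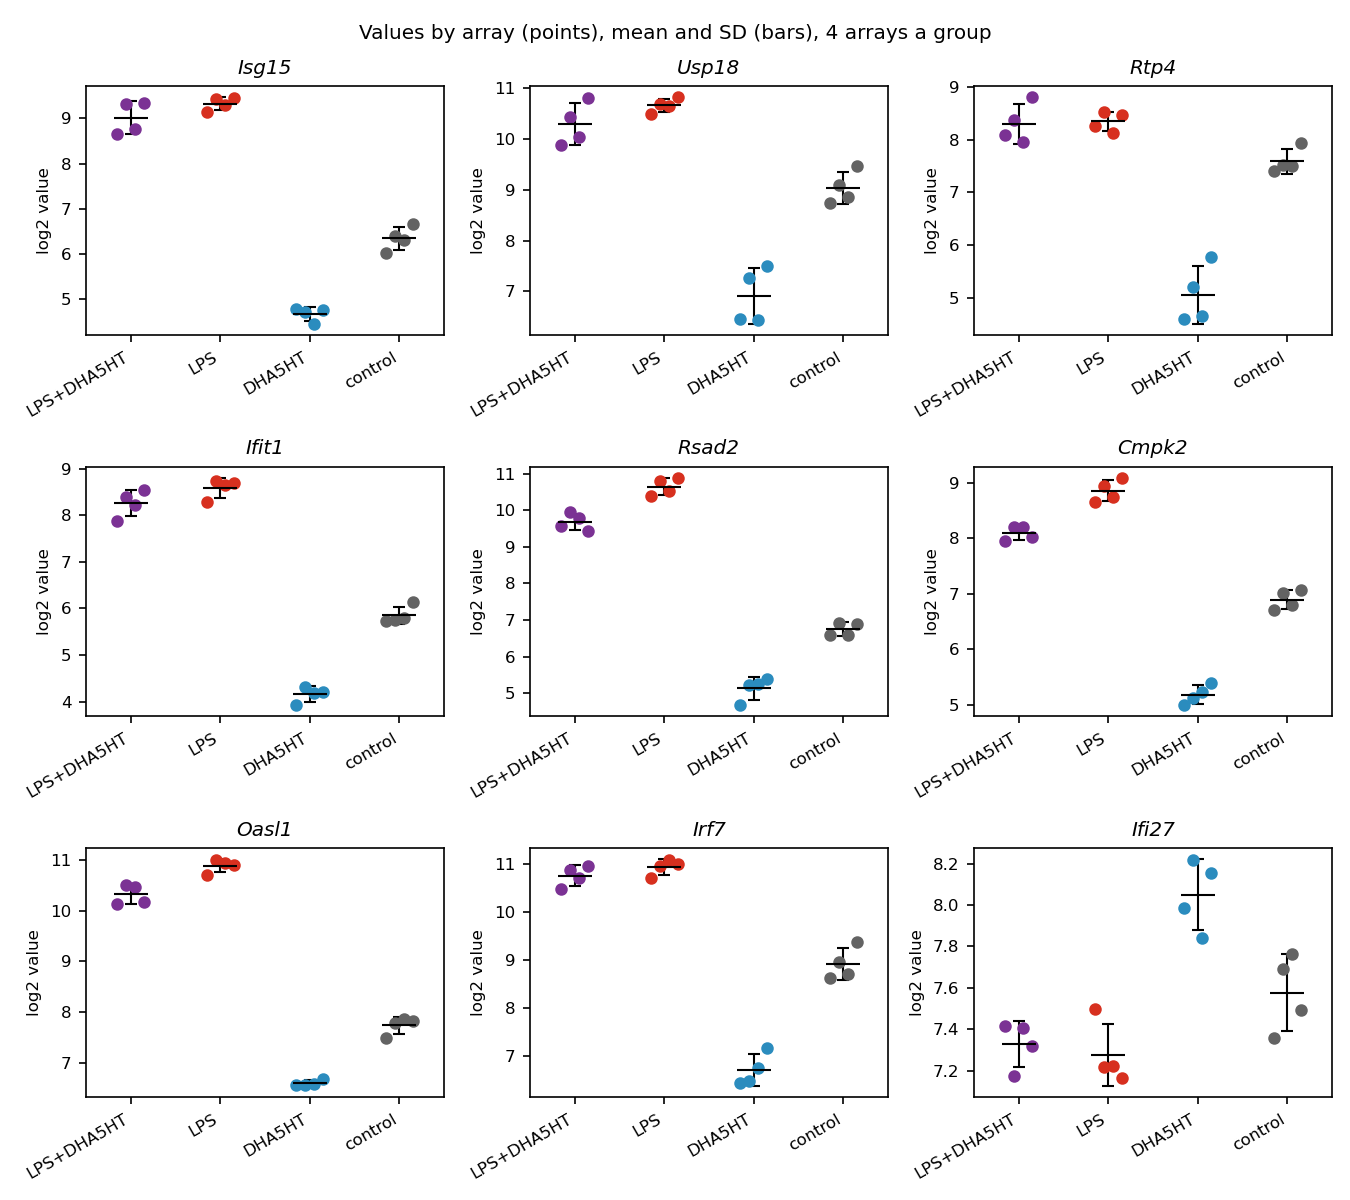
Log2 value of 9 genes in each array (points) with the mean and SD of each group of 4 (bars), in panels with separate axes that do not start at 0. In 8 panels the DHA5HT arrays lie lowest and the control arrays next, and in the Ifi27 panel the DHA5HT arrays lie highest.

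The nucleotide and RNA enzymes held 2 of the 3 genes that fell with DHA5HT in LPS-treated cells, and all 6 of them fell with DHA5HT alone. Rsad2 (viperin) makes a nucleotide that ends viral RNA chains. It read 9.57, 9.94, 9.78 and 9.42 in the LPS+DHA5HT arrays, against 10.38, 10.79, 10.52 and 10.87 in the LPS arrays. Without LPS it read 4.68, 5.21, 5.25 and 5.38 in the DHA5HT arrays, against 6.59, 6.93, 6.59 and 6.90 in the control arrays. In both pairs every array with DHA5HT lay below every array without it. Rsad2 fell by 0.96 on the log2 scale in LPS-treated cells (adjusted p = 0.00318, limma) and by 1.62 in cells without LPS (adjusted p = 9.28e-06). The interaction did not pass (0.66, adjusted p = 0.379). LPS raised Rsad2 by 3.89 against control, 14.8-fold, the largest increase among the 41 genes and number 33 among all genes that rose.
Cmpk2 is a mitochondrial nucleotide kinase encoded beside Rsad2. It read 7.95, 8.21, 8.20 and 8.02 in the LPS+DHA5HT arrays, against 8.66, 8.93, 8.74 and 9.08 in the LPS arrays. Without LPS it read 4.99, 5.12, 5.22 and 5.39 in the DHA5HT arrays, against 6.70, 7.01, 6.79 and 7.06 in the control arrays. Here too the arrays with and without DHA5HT did not overlap in either pair. Cmpk2 fell by 0.76 in LPS-treated cells (adjusted p = 0.00158) and by 1.71 without LPS (adjusted p = 1.39e-07). Its interaction of 0.95 passed (adjusted p = 0.00727), so its decrease was larger without LPS.
The calls of Rsad2, Cmpk2 and Oasl1 in LPS-treated cells held in each of the 8 fits that left out 1 array. Without LPS+DHA5HT arrays 1 and 4 together, the changes were -0.78, -0.65 and -0.40, and no call remained (adjusted p = 0.1, 0.0586 and 0.157). That fit keeps 2 arrays of the group and calls 41 genes in all, against 337 with every array.
Isg20, an exonuclease that degrades RNA, read 7.63, 8.11, 7.53 and 8.32 in the DHA5HT arrays, against 8.93, 9.21, 8.84 and 9.45 in the control arrays. With LPS it read 10.03, 10.49, 9.98 and 10.95 in the LPS+DHA5HT arrays, against 10.28, 10.48, 10.23 and 10.67 in the LPS arrays. DHA5HT arrays lay below the control arrays (-1.21, adjusted p = 0.00598) and the LPS-treated groups overlapped. Its interaction of 1.15 did not pass (adjusted p = 0.166) and passed with the replicate block (adjusted p = 0.00014). Adar edits adenosines in double-stranded RNA. It read 8.65, 8.71, 8.69 and 8.73 in the DHA5HT arrays, against 9.16, 9.17, 9.15 and 9.30 in the control arrays. It also read 9.27, 9.38, 9.31 and 9.61 in the LPS+DHA5HT arrays, against 9.48, 9.42, 9.58 and 9.61 in the LPS arrays. The decrease without LPS was -0.50 (adjusted p = 0.00104), with narrow groups of arrays that stayed apart. Eif2ak2 (PKR) stops translation when it meets double-stranded RNA. It read 9.06, 8.97, 9.06 and 9.30 in the DHA5HT arrays, against 9.71, 9.64, 9.61 and 9.68 in the control arrays. With LPS it read 9.45, 9.94, 9.58 and 9.98 in the LPS+DHA5HT arrays, against 9.59, 9.69, 9.74 and 9.89 in the LPS arrays. Its decrease of -0.56 (adjusted p = 0.0144) lost its call without DHA5HT array 1, DHA5HT array 2 or control array 4 (adjusted p up to 0.0686). LPS did not move Eif2ak2 past the threshold (0.07, adjusted p = 0.719).
Samhd1, which depletes deoxynucleotides, read 10.55, 10.45, 10.56 and 10.56 in the DHA5HT arrays, against 10.79, 10.73, 10.79 and 10.78 in the control arrays. Its values with LPS were 10.94, 11.07, 11.07 and 11.10 in the LPS+DHA5HT arrays, against 11.13, 11.20, 11.18 and 11.24 in the LPS arrays. The arrays of both pairs were apart, though the steps were small. Its change of -0.25 without LPS passed (adjusted p = 0.0393) and lost its call in each of the 8 fits that left out 1 array (adjusted p of 0.0636 to 0.147). In LPS-treated cells the change was -0.14 (adjusted p = 0.205).

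The oligoadenylate synthetases make short oligoadenylates that switch on the RNA-cleaving enzyme RNase L. All 5 measured members fell with DHA5HT alone, from -0.999 for Oas1a to -1.60 for Oasl2. Oasl1, a member without that enzyme activity that in the mouse holds back translation of Irf7, read 10.14, 10.50, 10.47 and 10.18 in the LPS+DHA5HT arrays, against 10.70, 10.99, 10.95 and 10.89 in the LPS arrays. Without LPS it read 6.55, 6.56, 6.58 and 6.68 in the DHA5HT arrays, against 7.49, 7.78, 7.85 and 7.82 in the control arrays. The groups with DHA5HT lay below their partners with no overlap in both pairs. Oasl1 fell by 0.56 in LPS-treated cells (adjusted p = 0.00643) and by 1.14 without LPS (adjusted p = 4.7e-06). LPS raised it by 3.15, 8.87-fold. Its interaction of 0.58 did not pass (adjusted p = 0.117) and passed with the replicate block (adjusted p = 0.0226).
Oasl2 read 6.32, 6.30, 6.48 and 6.80 in the DHA5HT arrays, against 7.98, 8.03, 7.96 and 8.34 in the control arrays. It read 8.69, 9.22, 8.84 and 9.57 in the LPS+DHA5HT arrays, against 8.74, 9.06, 9.14 and 9.25 in the LPS arrays. The first pair was far apart and the second overlapped, and the interaction was 1.64 ± 0.23 (SE, adjusted p = 0.00315). Oas3, which binds long double-stranded RNA, read 7.10, 7.33, 7.40 and 7.72 in the DHA5HT arrays, against 8.55, 8.87, 8.48 and 9.02 in the control arrays. It read 8.93, 9.28, 9.04 and 9.55 in the LPS+DHA5HT arrays, against 9.08, 9.27, 9.38 and 9.39 in the LPS arrays. The pattern was that of Oasl2, with an interaction of 1.26 (adjusted p = 0.00978). Oas2 read 7.19, 7.32, 6.74 and 7.32 in the DHA5HT arrays, against 8.24, 8.47, 8.37 and 8.63 in the control arrays. It read 8.73, 8.71, 8.48 and 9.07 in the LPS+DHA5HT arrays, against 8.59, 8.79, 8.73 and 8.66 in the LPS arrays. Oas2 differs from the others in that LPS did not raise it past the threshold (0.26, adjusted p = 0.159), while DHA5HT alone lowered it 2.44-fold and the interaction was 1.34 (adjusted p = 0.00228).
Oas1a read 7.95, 8.38, 7.76 and 8.20 in the DHA5HT arrays, against 8.74, 9.20, 9.02 and 9.33 in the control arrays. It read 9.60, 9.87, 9.43 and 10.14 in the LPS+DHA5HT arrays, against 9.70, 9.84, 9.63 and 9.83 in the LPS arrays. Its decrease of -0.999 passed (adjusted p = 0.00253). Its interaction of 1.01 did not pass (adjusted p = 0.0677) and passed with the replicate block (adjusted p = 0.00205). Close copies such as Oas1a and Oas1g, or Ifit3 and Ifit3b, can share array probes, so values of one may hold signal of the other.

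IFIT proteins bind the ends of viral RNA and block its translation. Ifit1 read 3.93, 4.32, 4.18 and 4.20 in the DHA5HT arrays, against 5.72, 5.74, 5.80 and 6.13 in the control arrays. It read 7.88, 8.39, 8.22 and 8.55 in the LPS+DHA5HT arrays, against 8.28, 8.73, 8.64 and 8.68 in the LPS arrays. The DHA5HT arrays lay well below the control arrays, and the LPS-treated groups overlapped well above them. Ifit1 fell 3.23-fold with DHA5HT alone (-1.69 ± 0.14 SE, adjusted p = 2.53e-06) and had an interaction of 1.37 (adjusted p = 0.00276).
Ifit3, an IFIT protein that in human cells steadies IFIT1, read 4.17, 4.61, 4.40 and 4.21 in the DHA5HT arrays, against 5.13, 5.26, 5.31 and 5.35 in the control arrays. It read 6.13, 6.26, 6.06 and 6.98 in the LPS+DHA5HT arrays, against 6.47, 6.69, 6.95 and 7.13 in the LPS arrays. Its decrease without LPS was -0.92 (adjusted p = 0.0133). The call was lost without DHA5HT array 1 or control array 4 (adjusted p up to 0.0655), with changes of -1.01 to -0.86 over the 8 leave-outs. Ifit2 averaged 6.80 ± 0.20 in DHA5HT cells and 7.20 ± 0.11 in control cells, a change of -0.40 that did not pass (adjusted p = 0.307) although the arrays did not overlap. Ifit3b, whose means in DHA5HT cells (3.06 ± 0.10) and control cells (3.30 ± 0.13) lay below the level of genes that macrophages should lack, was the only one of the 41 genes to do so. Means in DHA5HT cells of Ifit1 (4.16), Ifit3 (4.35), Mx1 (3.61), Mx2 (4.35) and Ddx60 (4.49) lay above that level. They were still below the highest epithelial marker mean (4.67), so the fold changes of these genes with DHA5HT alone carry that limit. LPS raised Ifit1, Ifit2 and Ifit3, by 2.74, 0.57 and 1.55.

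Mx proteins are GTPases that trap viral components. Mx2, cytoplasmic in the mouse, read 4.72, 4.14, 4.05 and 4.48 in the DHA5HT arrays, against 5.68, 6.15, 5.91 and 6.25 in the control arrays. It read 6.24, 6.84, 6.49 and 7.48 in the LPS+DHA5HT arrays, against 6.94, 7.50, 6.88 and 7.60 in the LPS arrays. Every DHA5HT array lay below every control array, and DHA5HT alone lowered Mx2 3.14-fold (adjusted p = 0.000892). Mx1, the nuclear family member that blocks influenza virus and is defective in many laboratory mouse strains, read 3.71, 3.65, 3.57 and 3.53 in the DHA5HT arrays, against 3.96, 3.67, 3.77 and 3.91 in the control arrays. It read 4.49, 4.50, 5.05 and 5.07 in the LPS+DHA5HT arrays, against 5.13, 5.14, 5.17 and 5.51 in the LPS arrays. Mx1 was near the level of genes that macrophages should lack (3.60) in both groups without LPS, and its DHA5HT change of -0.21 did not pass (adjusted p = 0.638). LPS raised it by 1.41. In LPS-treated cells all 4 arrays with DHA5HT lay below all 4 without it, and the change of -0.46 did not pass (adjusted p = 0.0795).
Bst2 (tetherin) holds budding virus at the cell surface. It read 8.52, 8.64, 8.72 and 8.79 in the DHA5HT arrays, against 9.55, 9.77, 9.44 and 9.84 in the control arrays. It read 10.62, 10.88, 10.65 and 11.12 in the LPS+DHA5HT arrays, against 10.67, 10.94, 10.77 and 10.92 in the LPS arrays. Its arrays were apart without LPS (-0.98, adjusted p = 8.48e-05) and nearly identical in mean with LPS (-0.01, 95% interval -0.25 to 0.23), with an interaction of 0.97 (adjusted p = 0.00817). Ifitm3, which blocks fusion of viruses with endosomes, averaged 12.17 ± 0.08 in DHA5HT cells and 12.40 ± 0.07 in control cells. Its change of -0.23 did not pass (adjusted p = 0.0878) and passed with the replicate block (adjusted p = 0.046).

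Rtp4, Ifi44l and Xaf1 lay at the top of the DHA5HT effect among the remaining effectors. Rtp4 read 4.59, 5.21, 4.65 and 5.77 in the DHA5HT arrays, against 7.40, 7.51, 7.50 and 7.94 in the control arrays. It read 8.08, 8.37, 7.95 and 8.80 in the LPS+DHA5HT arrays, against 8.26, 8.52, 8.13 and 8.46 in the LPS arrays. The DHA5HT arrays lay far below the control arrays and were the most scattered group, and the LPS-treated groups overlapped. LPS raised Rtp4 by 0.75 against control, and LPS+DHA5HT cells stood 3.24 above DHA5HT cells. Its interaction of 2.49 ± 0.31 (SE, adjusted p = 0.00137) was the largest positive one of all genes.
Ifi44l, an interferon-induced GTP-binding family member, read 4.48, 4.64, 4.69 and 5.41 in the DHA5HT arrays, against 6.87, 6.89, 6.96 and 7.46 in the control arrays. It read 7.58, 7.90, 7.74 and 8.89 in the LPS+DHA5HT arrays, against 8.01, 8.09, 8.07 and 8.37 in the LPS arrays. Array 4 was the highest in each of the 4 groups. Ifi44l fell 4.73-fold with DHA5HT alone and had an interaction of 2.14 (adjusted p = 0.00649). Xaf1, a protein that antagonises the apoptosis inhibitor XIAP, read 6.07, 6.24, 6.06 and 6.49 in the DHA5HT arrays, against 7.70, 7.82, 7.53 and 8.02 in the control arrays. It read 8.43, 8.70, 8.37 and 9.11 in the LPS+DHA5HT arrays, against 8.76, 9.03, 8.79 and 9.02 in the LPS arrays. It fell 2.94-fold with DHA5HT alone and had an interaction of 1.31 (adjusted p = 0.00637).
Ifi35, a partner of Nmi in a cytoplasmic complex, read 7.54, 7.44, 7.53 and 7.38 in the DHA5HT arrays, against 8.09, 8.37, 8.27 and 8.34 in the control arrays. It read 8.48, 8.66, 8.42 and 8.93 in the LPS+DHA5HT arrays, against 8.65, 8.79, 8.64 and 8.70 in the LPS arrays. Its arrays were apart only in the first pair, with a change of -0.80 (adjusted p = 0.000123). The interaction of 0.72 (adjusted p = 0.0227) was no longer past the threshold when LPS 1 or 3, DHA5HT 2 or 4, or control 2 or 4 was left out (adjusted p up to 0.0594). Lgals3bp, a secreted glycoprotein that binds galectins, read 12.06, 12.16, 12.07 and 12.24 in the DHA5HT arrays, against 12.48, 12.56, 12.39 and 12.54 in the control arrays. It read 12.74, 12.87, 12.75 and 12.87 in the LPS+DHA5HT arrays, against 12.73, 12.83, 12.80 and 12.81 in the LPS arrays. DHA5HT alone lowered it by a small step of 0.36 (adjusted p = 0.00513). Its interaction of 0.37 did not pass (adjusted p = 0.0905) and passed with the replicate block (adjusted p = 0.0209). Nmi and Tor3a, an ATPase of the endoplasmic reticulum, changed by -0.25 and -0.27 without passing (adjusted p = 0.457 and 0.18), and Tor3a passed with the replicate block (adjusted p = 0.0356).
Ifi27, a mitochondrial protein, ran the other way. It read 7.99, 8.22, 7.84 and 8.16 in the DHA5HT arrays, against 7.36, 7.69, 7.77 and 7.49 in the control arrays. It read 7.42, 7.17, 7.41 and 7.32 in the LPS+DHA5HT arrays, against 7.50, 7.22, 7.22 and 7.17 in the LPS arrays. The DHA5HT arrays all lay above the control arrays, and the LPS arrays overlapped the control arrays. Ifi27 rose by 0.47 with DHA5HT alone (adjusted p = 0.0443) and fell by 0.30 with LPS (adjusted p = 0.0361). The first call was lost when any 1 array other than control 3 or DHA5HT 3 was left out (adjusted p of 0.0242 to 0.171 over the 8 fits) and with the replicate block (0.078). The second did not pass when control 2 or 3 or LPS 2, 3 or 4 was left out (adjusted p up to 0.125).

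TRIM proteins and nuclear body proteins moved by smaller steps. Trim30a, a mouse protein that dampens TLR signalling, read 9.63, 9.72, 9.66 and 9.86 in the DHA5HT arrays, against 10.54, 10.52, 10.54 and 10.83 in the control arrays. It read 10.97, 11.28, 11.04 and 11.53 in the LPS+DHA5HT arrays, against 11.15, 11.26, 11.28 and 11.36 in the LPS arrays. It fell by 0.89 with DHA5HT alone (adjusted p = 0.00014). Its interaction of 0.83 (adjusted p = 0.0209) did not pass when LPS 1 or 2 or DHA5HT 1 or 3 was left out (adjusted p up to 0.0568). Sp100, a component of nuclear bodies, read 8.99, 8.94, 8.98 and 9.11 in the DHA5HT arrays, against 9.79, 9.89, 9.82 and 9.92 in the control arrays. It read 10.02, 10.42, 10.13 and 10.71 in the LPS+DHA5HT arrays, against 10.28, 10.61, 10.43 and 10.54 in the LPS arrays. It fell by 0.85 (adjusted p = 0.000549) without LPS, and the LPS-treated groups overlapped. Its interaction of 0.71 did not pass (adjusted p = 0.0932) and passed with the replicate block (adjusted p = 0.0213). Pml, the organiser of the same bodies, and Trim21, an intracellular antibody receptor, passed in neither DHA5HT comparison nor with LPS (0.06 and 0.21 against control). Their DHA5HT arrays lay below the control arrays, with changes of -0.28 and -0.24.
Parp14 and Parp12 transfer ADP-ribose to proteins. Parp14 read 8.24, 8.24, 8.33 and 8.55 in the DHA5HT arrays, against 9.27, 9.31, 9.42 and 9.66 in the control arrays. It read 9.88, 10.29, 10.05 and 10.19 in the LPS+DHA5HT arrays, against 10.04, 10.20, 10.32 and 10.41 in the LPS arrays. It fell by 1.07 without LPS (adjusted p = 2.27e-05) and had an interaction of 0.94 (adjusted p = 0.00798). Parp12 read 9.19, 9.21, 9.27 and 9.37 in the DHA5HT arrays, against 9.90, 9.84, 9.99 and 10.06 in the control arrays. It read 9.98, 10.04, 9.98 and 10.33 in the LPS+DHA5HT arrays, against 10.18, 10.14, 10.24 and 10.24 in the LPS arrays. It fell by 0.69 (adjusted p = 6.99e-05). Its interaction of 0.57 (adjusted p = 0.0313) lost its call when any 1 of 9 arrays was left out (LPS 1 to 4, DHA5HT 1 to 3, control 3 or 4), with values of 0.49 to 0.61 and adjusted p up to 0.0847. Its rise with LPS (0.25, adjusted p = 0.0196) did not pass when control 1 or 2 or LPS 4 was left out (adjusted p up to 0.0661).
Helz2, a helicase that acts as a co-activator of nuclear receptors, read 6.73, 6.78, 6.82 and 6.94 in the DHA5HT arrays, against 7.62, 7.75, 7.73 and 8.01 in the control arrays. It read 8.66, 8.62, 8.53 and 8.70 in the LPS+DHA5HT arrays, against 8.66, 8.85, 8.95 and 8.99 in the LPS arrays. It fell by 0.96 without LPS (adjusted p = 7.88e-06) and its interaction was 0.72 (adjusted p = 0.0108). Ddx60, a helicase that assists RIG-I, read 4.53, 4.49, 4.55 and 4.42 in the DHA5HT arrays, against 5.33, 5.16, 5.31 and 5.79 in the control arrays. It read 6.05, 6.38, 6.19 and 6.61 in the LPS+DHA5HT arrays, against 6.49, 6.76, 6.76 and 7.08 in the LPS arrays. It fell by 0.90 without LPS (adjusted p = 0.00207). In LPS-treated cells its change of -0.47 did not pass (adjusted p = 0.101) and passed with the replicate block (adjusted p = 0.033). Znfx1, a helicase that senses viral RNA at mitochondria, changed by -0.23 without passing (adjusted p = 0.339).

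LPS was also compared in cells that had received DHA5HT. In LPS+DHA5HT against DHA5HT it raised 40 of the 41 genes and lowered Ifi27 (-0.72), where 12.4% of all genes rose and 15.7% fell. The median change was 1.49, and 14 genes rose at least 4-fold, against 4 in LPS against control. Rsad2 rose by 4.55, Isg15 by 4.35, Ifit1 by 4.10 and Irf7, the transcription factor, by 4.05. The interaction is the test of this difference, since it is the same contrast read the other way round. The 8 genes that had not passed in LPS against control passed here, among them Oas2 (1.60) and Eif2ak2 (0.64). Of these 8, Oas2 was the one whose interaction passed. Nmi lost its call without LPS+DHA5HT array 4 (adjusted p = 0.055). Without LPS+DHA5HT arrays 1 and 4 the counts were 39 higher and 1 lower, and the interaction passed in 14 genes. In that fit Usp18 (1.70, adjusted p = 0.0731), Parp12 (0.50, adjusted p = 0.0657) and Helz2 (0.67, adjusted p = 0.101) lost their interaction call, and Oasl1 gained one (0.74, adjusted p = 0.0279).

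**Figure D4:**
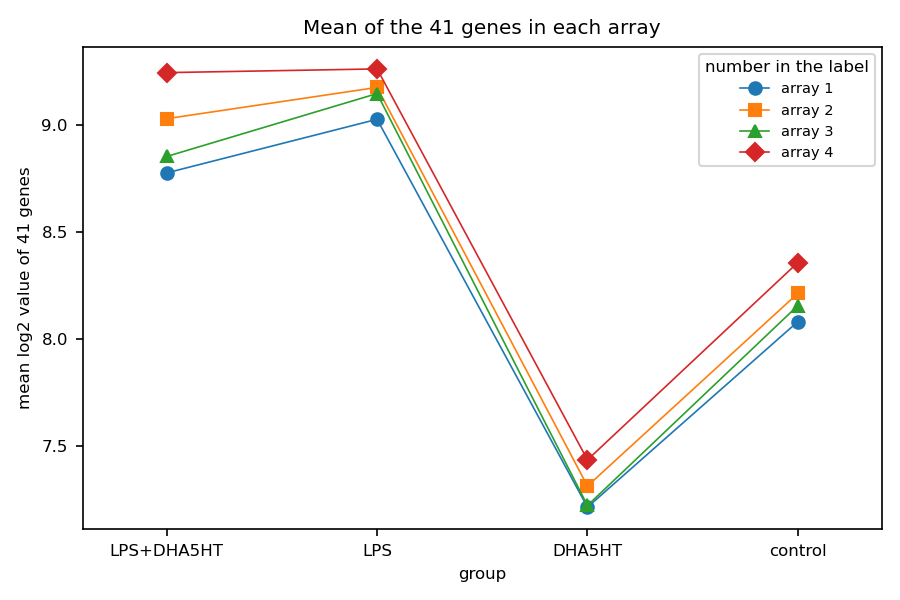
Mean log2 value of the 41 genes in each array, with lines joining arrays that carry the same number in the labels. In all 4 groups array 1 is lowest and array 4 highest, and the lines are nearly parallel between DHA5HT and control.

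The array means of the 41 genes show how even the DHA5HT effect was. They were 7.21, 7.31, 7.22 and 7.43 in the DHA5HT arrays, against 8.08, 8.21, 8.15 and 8.36 in the control arrays. Between same-numbered arrays the mean was lower with DHA5HT by 0.87, 0.90, 0.93 and 0.92, and in each pair 40 of the 41 genes were lower. In LPS-treated cells the means were 8.77, 9.03, 8.85 and 9.24 with DHA5HT, against 9.03, 9.17, 9.15 and 9.26 without it. The differences between same-numbered arrays were -0.25, -0.15, -0.29 and -0.02, and the number of genes that were lower was 36, 28, 40 and 19 of 41. Array 4 of LPS+DHA5HT, which stood apart over all genes, thus showed almost no difference from its partner in this mean. Single genes of that pair differed in both directions. Rsad2 read 9.42 against 10.87 in LPS array 4, and Ifit3b read 4.32 against 3.20. The mean over the 41 genes followed the label number in the same order in each group, lowest in array 1, then 3, 2 and 4. The first principal component of the 41 genes held 95.1% of their variance.

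Other genes of the pathway, from interferons and receptors to brakes on the signalling, were counted from lists of 45 genes. Of these, 38 were measured, and none is an effector on the list above. Against control, DHA5HT alone lowered 2 of the 38 (5.26%) and raised none, where 0.478% of all genes fell and 0.122% rose. Irf7, a master regulator of interferon genes that is itself interferon-induced, read 6.43, 6.48, 6.74 and 7.16 in the DHA5HT arrays, against 8.61, 8.95, 8.70 and 9.37 in the control arrays. It read 10.47, 10.87, 10.69 and 10.96 in the LPS+DHA5HT arrays, against 10.70, 10.95, 11.07 and 10.99 in the LPS arrays. Its DHA5HT arrays lay well below the control arrays, and the LPS-treated groups overlapped. The decrease of -2.21 ± 0.17 (SE, 4.61-fold, adjusted p = 2.02e-06) ranked 3 among the decreases of all genes, and the interaction of 2.03 (adjusted p = 0.000884) ranked 3 as well. Irf9, the DNA-binding part of ISGF3, read 7.42, 7.47, 7.53 and 7.74 in the DHA5HT arrays, against 8.14, 8.42, 8.21 and 8.40 in the control arrays. It read 8.31, 8.29, 8.10 and 8.43 in the LPS+DHA5HT arrays, against 8.33, 8.43, 8.30 and 8.57 in the LPS arrays. It fell by 0.75 without LPS (adjusted p = 0.00017). Its interaction of 0.63 (adjusted p = 0.0434) held in 4 of the 16 fits that left out 1 array (control 1, DHA5HT 4, LPS 4 or LPS+DHA5HT 3), with values of 0.59 to 0.70 and adjusted p of 0.02 to 0.116. Without LPS+DHA5HT arrays 1 and 4 it was 0.55 (adjusted p = 0.262).
Stat2, the ISGF3 subunit that carries its activation domain, read 8.07, 8.10, 8.00 and 8.32 in the DHA5HT arrays, against 8.52, 8.66, 8.43 and 8.89 in the control arrays. It read 8.74, 9.15, 8.83 and 9.38 in the LPS+DHA5HT arrays, against 8.93, 9.39, 9.35 and 9.38 in the LPS arrays. Its arrays did not overlap without LPS and overlapped with it, and the change of -0.50 did not pass (adjusted p = 0.163). Ifnb1, which encodes interferon beta, averaged 3.24 ± 0.14 in LPS+DHA5HT cells, 3.43 ± 0.19 in LPS cells, 3.35 ± 0.04 in DHA5HT cells and 3.27 ± 0.06 in control cells. All 4 means lay below the level of genes that macrophages should lack at this time point. With the replicate block, 4 of the 38 fell with DHA5HT alone, where 179 of all 18820 genes were called in either direction. In LPS-treated cells DHA5HT changed none of the 38 past the threshold (limma), where 0.972% of all genes fell and 0.818% rose. An unadjusted p under 0.05 was found for 10 of them, a larger share than the 13.7% of all genes. LPS against control raised 14 of the 38 (36.8%) and lowered 6 (15.8%), where 12.6% of all genes rose and 15.8% fell.

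The promoter element was set beside the changes. Of the 24 genes with a window that fell with DHA5HT alone, 9 held the ISRE core (37.5%), against 1 of the 9 others (11.1%). That gene was Ifit3b, whose DHA5HT and control means lay below the level of genes that macrophages should lack. The median DHA5HT change was -0.99 in the 10 genes with the core and -0.56 in the 23 without it. The ranges overlapped, at -1.69 to -0.24 with the core and -2.24 to -0.20 without it, and the difference was not tested. The medians for LPS against control were 1.28 and 0.57. Cmpk2 and Ifi44l, among the largest decreases, had no core in the 250 bases searched, which says only that these letters are not in that window. Rtp4, Usp18, Mx2, Oas2 and Parp14, which also fell with DHA5HT alone, had no window.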

How the data were processed

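The authors deposited log2 intensities, 1 per probe set. The submitters' processing notes name RMA, a method that corrects background, equalises the arrays and summarises probes, without its version. The annotation they used is not given in the sources used here. The table held 35556 probe sets in 16 arrays. Of these, 21218 named 1 gene in the array's gene table, 1881 named several and 12457 were not listed there. For 1386 genes with several probe sets the brightest was used. This gave 18820 genes.

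Groups followed the sample titles. In R 4.3.3, limma 3.58.1 fitted a mean per group to all 16 arrays at once, with moderated two-sided tests and 12 residual degrees of freedom. Each comparison was adjusted by Benjamini-Hochberg over all genes and called at 0.05. The fit was tested on simulated data. Figures used matplotlib 3.10.9.

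The effector genes, the pathway lists and the tests were chosen with earlier results of these data known. All listed genes could be named. Array values are given for effectors past the threshold in a DHA5HT comparison or the interaction, and for the 8 largest LPS changes. Pathway genes named were those past the threshold in a DHA5HT comparison or the interaction, with Ifnb1 and Stat2, and the rest were counted. A further gene of these lists is not reported here.

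The labels number the arrays 1 to 4 in each group. Deviations of same-numbered arrays from their group means correlated at 0.12 to 0.20 over genes for LPS+DHA5HT with LPS and at 0.13 to 0.18 for DHA5HT with control, above 0.1 in all 4 pairs of each. Arrays with different numbers correlated at -0.15 to 0.13 and at -0.15 to 0.10 in these comparisons, so the ranges touched or overlapped. By the criterion of 0.1, the same-numbered arrays of both comparisons were taken as paired. The main fit held no block, so its counts and adjusted p do not use this pairing. Values with the number as a block are given where they change a call. No 2 arrays held the same values. The alternatives were the block, an intensity trend, a filter on dim genes, further normalization or centring, other probe set rules, weights for arrays, stricter thresholds, only the compared groups in the fit, and leaving out arrays. The precision is limited by the 4 arrays of a group.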

Additional observations from a re-analysis of the deposited data

Results flagged for a closer look

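In 13 of the 164 groups of 4 arrays (41 genes in 4 groups), 1 array stood far from the other 3 by Dixon's criterion, where chance gives about 1 in 20. Array 4 was that array in 8 cases and always the highest. These were Ifit3b (4.32) and Parp12 (10.33) in LPS+DHA5HT cells, Ifit2 (8.20) and Mx1 (5.51) in LPS cells, and Herc6 (8.44), Adar (9.30), Trim30a (10.83) and Ifi44l (7.46) in control cells. Array 1 was lowest for Herc6 in LPS cells (9.26) and for Ifit3b in control cells (3.11), and highest for Ifi27 in LPS cells (7.50). Array 2 was lowest for Samhd1 in both DHA5HT cells (10.45) and control cells (10.73).

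The DHA5HT effect differed between cells with and without LPS in 16 effector genes and in 2 pathway genes by the interaction test. The values (log2, positive where the DHA5HT change was less negative with LPS) were 2.49 for Rtp4, 2.14 for Ifi44l, 1.76 for Usp18, 1.64 for Oasl2, 1.37 for Ifit1 and for Isg15, 1.34 for Oas2, 1.31 for Xaf1 and 1.26 for Oas3. They were 0.97 for Bst2, 0.95 for Cmpk2, 0.94 for Parp14, 0.83 for Trim30a, 0.72 for Helz2 and for Ifi35, and 0.57 for Parp12. Irf7 had 2.03 and Irf9 had 0.63.

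Probe sets that name several genes entered no comparison. In 3 of them an effector is among the genes, and all LPS arrays lay above all control arrays. A pair that names both Dtx3l and Parp9 stood 0.44 and 0.62 higher in LPS than in control, and one that names Oas1a and Oas1g stood 0.70 higher. The Dtx3l and Parp9 pair averaged 7.41 ± 0.12 and 7.50 ± 0.10 in DHA5HT cells, against 7.99 ± 0.10 and 7.94 ± 0.13 in control cells (SD, n = 4). The Oas1a and Oas1g probe set averaged 8.88 ± 0.31 in DHA5HT cells and 9.91 ± 0.24 in control cells. These changes were not tested.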

How the results depend on the processing

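No result reversed under any alternative tried. Of the counts for DHA5HT against control, the number of effectors that fell stayed between 26 and 28 when 1 array was left out, and the 1 that rose became 0 with the replicate block, centring, all probe sets, a threshold of 0.01, a 1.5-fold minimum or the compared groups alone (0 to 1 when 1 array was left out). The pathway genes that fell numbered 4 with the block and 2 to 3 without 1 array. For LPS+DHA5HT against LPS, the effectors that fell numbered 5 with the block, 0 without arrays 1 and 4 of LPS+DHA5HT (an alternative added after seeing the data) and 3 to 4 without 1 array, and 0 to 1 pathway genes fell. For LPS against control, the 1 effector that fell became 0 with the block, repeated quantile normalization, a threshold of 0.01, a 1.5-fold minimum or the compared groups alone (0 to 1 without 1 array). Pathway genes that rose numbered 9 at 0.01 and 7 at 1.5-fold, and 1 fell at 1.5-fold. For LPS+DHA5HT against DHA5HT, 8 pathway genes rose and 1 fell at 1.5-fold. The interaction held for 12 to 19 effectors without 1 array and 22 with the block. It held for 1 pathway gene with repeated quantile normalization, all probe sets, array weights, a threshold of 0.01 or without arrays 1 and 4 (1 to 2 without 1 array). Over all genes, LPS+DHA5HT against LPS gave 337 calls, against 647 with the block, 557 above the median gene, 81 at 0.01, 77 at 1.5-fold, 86 from the compared groups alone and 41 without arrays 1 and 4. DHA5HT against control gave 113, against 179 with the block and 61 at 1.5-fold. The interaction gave 62, against 96 with the block, 28 at 0.01 and 36 without arrays 1 and 4. At 1.5-fold, LPS against control gave 1622 of 5346 and LPS+DHA5HT against DHA5HT gave 1534 of 5285. The cause was not tested. For LPS against control and LPS+DHA5HT against DHA5HT the same-numbered arrays were not taken as paired (correlations of 0.10 to 0.13 and 0.07 to 0.23), and the block gave 33 and 40 effectors that rose. Of 1856 gene-level values without 1 array, 105 lost their call and 10 gained one.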
